A study of Mus musculus with 6 samples.

Results

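The guidance genes described here are the semaphorins, plexins, neuropilins, ephrins, Eph receptors, Slits, Robo receptors, netrins and Unc5 receptors. Their symbols were matched to those 9 families by name alone, and 67 of the 18193 genes read from the arrays qualified. They are covered by 148 probe sets, the groups of short probes from which a 3′ expression array gives 1 signal per transcript region. NFFSE-cultured cells (3 arrays) were mouse vibrissa bulge cells grown in medium with Noggin, FGF-7, FGF-10, the hedgehog agonist SAG and EGF. They were set against NFFS-cultured cells (3 arrays), grown with the same additions but no EGF. All cultures were kept for 6 days in atelocollagen, a type I collagen gel. Cells came from mice aged 7 to 8 weeks and were not sorted, so the starting material could include niche cells of the bulge region. The study's text places the follicles at various hair cycle stages, while a figure legend gives the growing phase, anagen. Several mouse strains appear in the methods without one being tied to the arrays. The starting cells were divided between both media in each of 3 repeats, which the labels call biological replicates.

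Guidance molecules were first known as cues that steer growing axons. A ligand on or near one cell binds a receptor on another, and the receptor changes the actin cytoskeleton and cell adhesion. Semaphorins act through plexins, and the secreted class 3 semaphorins mostly need a neuropilin as co-receptor. Ephrins stay tethered to the cell surface and signal both into the cell that carries the Eph receptor and back into their own cell, Slits are secreted ligands of Robo receptors, and netrins bind Dcc, neogenin and the Unc5 receptors. In skin these families are known from keratinocyte contacts, from vessels and from the nerves that surround the follicle, which are dense around vibrissae.

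The deposited values were MAS5 signals on a linear scale, and every signal below is given in that unit, array by array in the order of replicates 1, 2 and 3. A log2 difference is NFFSE minus NFFS with its standard error, and a gene was called at a Benjamini-Hochberg adjusted p under 0.05 over all genes in limma. The array medians were 56.5 to 65.0 in NFFSE and 66.5 to 70.6 in NFFS. Background was taken as 22.7, the highest signal of the bacterial TrpnX controls. The log2 ratio of the 3′ to the 5′ control probe set of Gapdh, a sign of RNA quality, was -0.37 ± 0.01 in NFFSE and -0.62 ± 0.02 in NFFS (SD, n = 3 each), and a two-sided exact permutation over the arrays gave p = 0.1, below which 3 against 3 cannot go. For Actb it was 0.27 ± 0.02 in NFFSE and 0.33 ± 0.06 in NFFS (exact permutation p = 0.3). The part of RNA quality in the results was not tested.

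Some markers of other cells were called as well. For comparison, 11.0% of all genes tested were called higher in NFFSE and 15.2% lower. Of 12 fibroblast and dermal papilla markers 5 were lower in NFFSE and 0 higher, with summed signals of 2730 to 2852 in NFFSE and 6690 to 7851 in NFFS. Most of that sum was Sparc, a matrix protein, at 2171 to 2246 in NFFSE and 5706 to 6977 in NFFS, and the other 11 summed to 559 to 608 in NFFSE and 874 to 1072 in NFFS. The genes called lower were Sparc, Col1a2, Col6a1, Thy1 and Vim. Not called were Dcn (-0.85) and Alx4 (-0.36), with negative log2 differences. Col1a1 (0.28), Col3a1 (0.06), Lum (0.39), Pdgfra (1.40) and Crabp1 (1.72) had positive log2 differences and were not called either. Of the NFFS arrays 2 were at background for Crabp1 and 1 for Pdgfra. Of 8 smooth muscle and pericyte markers 3 were lower (Cspg4, Acta2 and Tagln) and 0 higher. The 8 summed to 308 to 521 in NFFSE and 3093 to 4297 in NFFS. Most of the NFFS sum was Cspg4, at 128 to 202 in NFFSE and 1814 to 3168 in NFFS. The other markers summed to 180 to 343 in NFFSE and 1130 to 1278 in NFFS. Myh11 (-0.68), Pdgfrb (-0.48), Des (-0.19), Rgs5 (0.23) and Cnn1 (0.39) were not called, and Cnn1 was at background on every array. Sums of 12 endothelial markers were 406 to 455 in NFFSE and 299 to 475 in NFFS, limma called 0 of them (1 had an unadjusted p under 0.05, and the methods' t-test called 0), and Tie1 and Vwf were at background throughout. Of 10 measured Schwann cell and nerve markers 2 were higher and 1 lower (sums 3258 to 4785 in NFFSE and 2963 to 4118 in NFFS). Of 6 Merkel cell markers 1 was higher (Krt18) and 1 lower (Krt8), with sums of 1958 to 2553 in NFFSE and 1247 to 1719 in NFFS. Most of the NFFSE sum was Krt18, and the markers without it summed to 555 to 605 in NFFSE and 949 to 1302 in NFFS. Sums of 10 leukocyte markers were 464 to 557 in NFFSE and 403 to 507 in NFFS, and those of 7 melanocyte markers 384 to 579 in NFFSE and 438 to 595 in NFFS. In either of these lists 0 markers were called. The 12 keratinocyte markers summed to 178800 to 206650 in NFFSE and 158240 to 178820 in NFFS, with 6 higher and 1 lower, and none of them was at background, as the epithelial label of the cultures requires. The lower one was Krt15, with 5003, 6306 and 9574 in NFFSE and 23092, 28288 and 28316 in NFFS (log2 difference -1.98). The part of other cell types in the guidance results was not tested, and in these bulk samples fewer cells of a type and less RNA per cell cannot be told apart.

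The guidance genes differed between the media in both directions. Of 67 genes, 13 were higher in NFFSE-cultured cells, 19 were lower and 35 were not called, which makes 47.8% called, against 26.2% of all genes tested. By direction, 11.0% of all genes were called higher and 15.2% lower. The median log2 difference was -0.30 over the guidance genes and -0.01 over all genes, and the median absolute difference was 0.86 against 0.46. All 32 called genes had signals that did not overlap between the media, as had 4744 of the 4773 called among all genes. Without overlap a gene also moves the same way in all 3 repeats. Called or not, 41 of the 67 guidance genes and 40.5% of all genes had no overlap. A gene is called dim here where its mean signal in each medium lay under 73.95, the 40th percentile of all genes' mean signals over the 6 arrays. This held for 18 guidance genes, of which limma called 0 (1 had an unadjusted p under 0.05, and the methods' t-test after adjustment called 1). Dim genes were 6860 of all 18193. Of the genes that were not dim, 65.3% of 49 guidance genes were called, against 40.2% of all 11333. Calls were made for 21 of 35 ligands (10 higher and 11 lower) and for 11 of 32 receptors and co-receptors (3 higher and 8 lower). The sum over families hides opposite changes between close relatives, which the plot of all log2 differences shows.

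**Figure D1:**
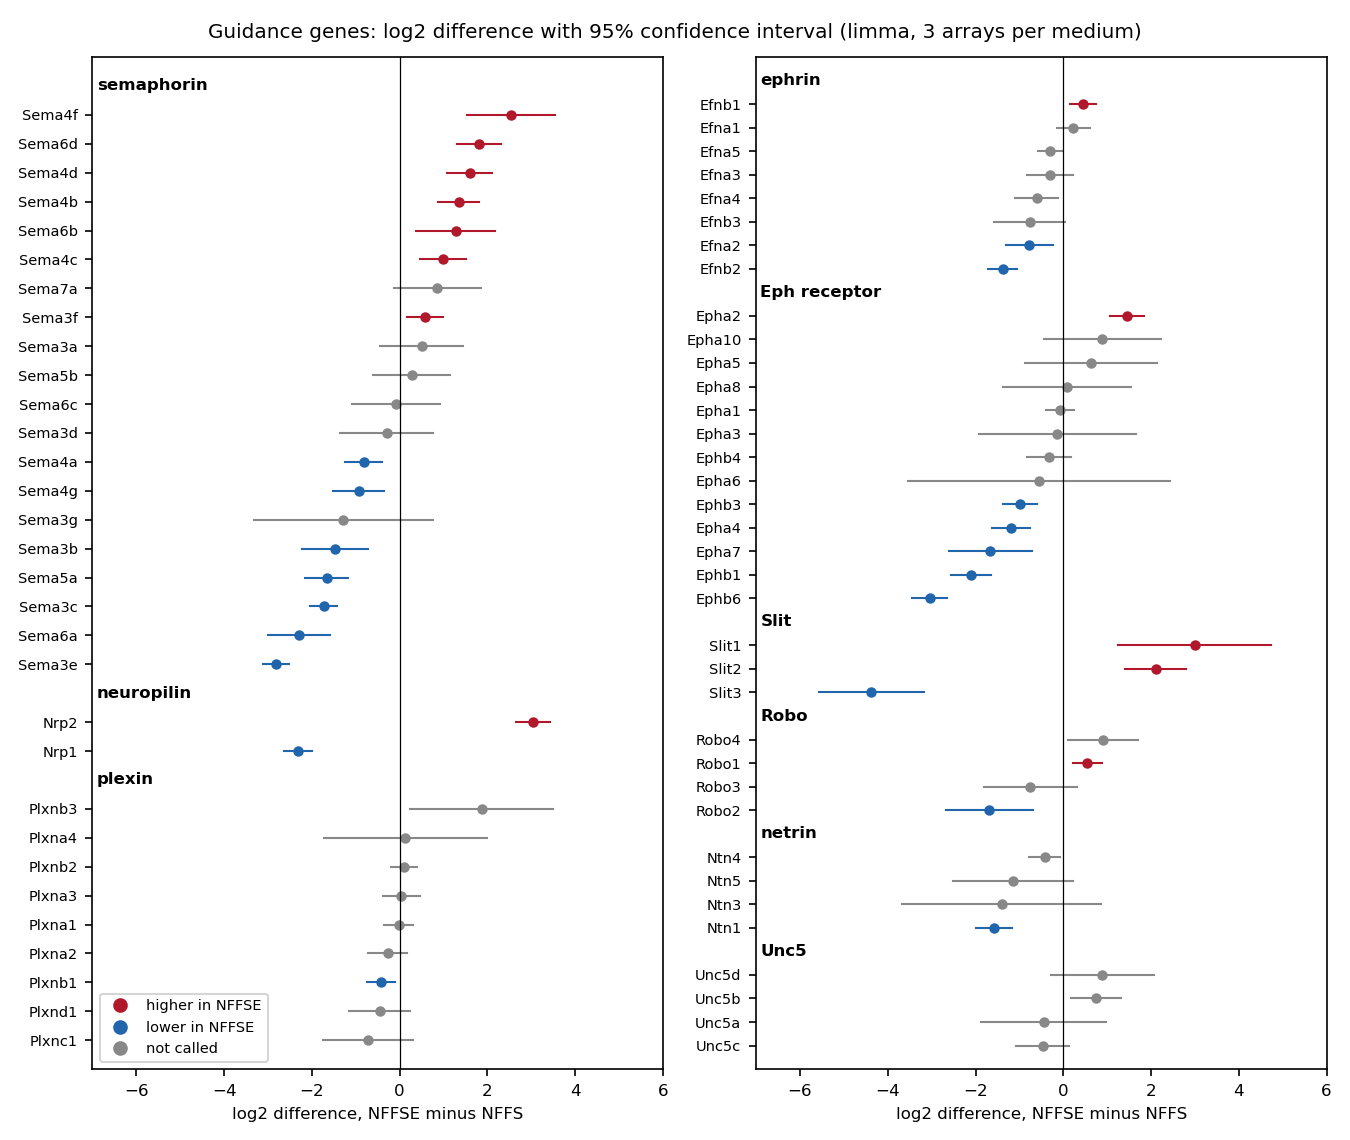
Log2 difference (NFFSE minus NFFS) of each of the 67 guidance genes, ordered within its family, with the 95% confidence interval from limma on 3 arrays per medium. Red points were called higher in NFFSE (13 genes), blue points lower (19 genes) and grey points were not called (35 genes); plexins and Unc5 receptors are nearly all grey, while neuropilins, Slits and class 4 semaphorins are all coloured.

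The neuropilins showed the clearest split. Neuropilin-2, the co-receptor through which semaphorins such as Sema3f signal, was 8.2-fold higher in NFFSE-cultured cells, and neuropilin-1, the co-receptor of Sema3a that also binds VEGF, was 4.97-fold lower. Nrp2 gave signals of 1336, 1360.5 and 1089.7 in NFFSE-cultured cells, against 175, 166 and 124 in NFFS-cultured cells. All 3 NFFSE arrays lay far above all 3 NFFS arrays (log2 difference 3.04 ± 0.17, adjusted p = 2.26e-06). For Nrp1 the signals were 169.9, 155 and 159.5 in NFFSE-cultured cells, against 789, 827 and 791 in NFFS-cultured cells. Here the NFFS arrays were the high ones and lay close together, as did the NFFSE arrays (log2 difference -2.31 ± 0.14, adjusted p = 3.39e-06). The 3 paired differences ran from 2.94 to 3.13 for Nrp2 and from -2.42 to -2.22 for Nrp1. Other probe sets moved alike: in a fit over every probe set, where 20.4% of 45037 were called, all 4 probe sets of Nrp1 were called lower and 3 of the 4 of Nrp2 higher.

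The promoters of both neuropilins are printed because these genes of one family moved in opposite directions. Sequences are RefSeq's (GRCm38.p6), 250 bases before an annotated start on the gene's own strand, 5′ to 3′, with the GC box in capitals (GGGCGG on either strand, the site named for factors of the Sp family).
Nrp2, chr1:62703067-62703316, plus strand: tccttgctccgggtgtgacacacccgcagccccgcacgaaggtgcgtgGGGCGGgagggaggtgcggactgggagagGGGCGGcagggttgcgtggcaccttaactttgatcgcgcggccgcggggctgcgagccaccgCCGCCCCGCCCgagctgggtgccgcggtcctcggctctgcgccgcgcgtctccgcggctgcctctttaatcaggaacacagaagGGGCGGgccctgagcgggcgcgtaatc
Nrp1, chr8:128358823-128359072, plus strand: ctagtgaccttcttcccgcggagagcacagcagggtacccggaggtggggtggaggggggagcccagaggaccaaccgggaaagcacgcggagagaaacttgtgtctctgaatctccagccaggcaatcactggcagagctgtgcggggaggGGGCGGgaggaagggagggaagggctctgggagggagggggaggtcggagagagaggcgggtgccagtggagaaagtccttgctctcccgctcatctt
The Nrp2 window held 5 matches, of which a neighbouring pair on the opposite strand share a base, and the Nrp1 window held 1. A GC box occurred in 11 of 17 windows of genes called higher, 17 of 22 of genes called lower and 25 of 35 of genes not called, and in 35.7% of all 32851 promoter windows of the table. These windows covered 58 of the 67 genes (74 windows of 300 bases each, with 50 after the start), and 21 of the 46 genes with a single window had the start that the gene table gives, so that for others the window belongs to a different transcript. The start used for Nrp2 is that of the gene table, and the one used for Nrp1 lies 482 bases inside the gene. A match describes letters in a window and no binding.

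Among the semaphorins, 7 of 20 were higher, 7 lower and 6 not called, which makes 70% called, against 26.2% of all genes. Of the 7 secreted class 3 genes, 1 was higher and 3 were lower. All 6 membrane-bound class 4 genes were called, 4 higher and 2 lower. Class 5 had 1 lower of 2, class 6 had 2 higher and 1 lower of 4, and the lipid-anchored Sema7a was not called.

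Sema3e, a secreted ligand that binds plexin D1 directly without a neuropilin, had the smallest adjusted p of the guidance genes. Its signals were 244, 241 and 276 in NFFSE-cultured cells, against 1977, 1863 and 1567 in NFFS-cultured cells. NFFSE-cultured cells stood 7.08-fold below, with no overlap (log2 difference -2.82 ± 0.14, adjusted p = 7.78e-07), and all 4 probe sets of the gene were called lower. Its receptor Plxnd1 had 48.5, 56.6 and 66.2 in NFFSE and 77.2, 71.6 and 85.3 in NFFS and was not called (-0.46, adjusted p = 0.35). Sema3c, which signals through either neuropilin, was also lower in NFFSE, with 882, 870.3 and 637 in NFFSE-cultured cells, against 2489.6, 2722 and 2638 in NFFS-cultured cells. The lowest NFFS array exceeded the highest NFFSE array by far (-1.73 ± 0.14, adjusted p = 1.67e-05). Sema3f, whose main co-receptor is Nrp2, was among the class 3 genes the one called higher. It had 713, 882 and 756 in NFFSE-cultured cells, against 494, 423 and 685 in NFFS-cultured cells, and the highest NFFS array, replicate 3, came close to the lowest NFFSE array (0.58 ± 0.18, adjusted p = 0.041). The call on Sema3f was lost in 9 of 16 alternatives to the processing. Sema3b was lower as well and differed by -1.48 (adjusted p = 0.0088). Sema3a, Sema3d and Sema3g were not called, at 0.50, -0.29 and -1.28 on the log2 scale, and Sema3g was at background on most arrays.

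The class 4 semaphorins, transmembrane ligands of B-type plexins for the most part, leaned to the NFFSE side. Sema4d, known as CD100 and the ligand of plexin B1, was 3.02-fold higher. Its signals were 884, 726 and 524 in NFFSE-cultured cells, against 292, 233 and 179 in NFFS-cultured cells. Every NFFSE array was above every NFFS array (1.59 ± 0.23, adjusted p = 6.23e-04), and the 3 repeats gave 1.55 to 1.64. The gene's other probe sets, both of low signal, were not called. Sema4b gave 3188, 3368 and 2310.4 in NFFSE-cultured cells, against 1623, 956 and 983 in NFFS-cultured cells (1.34 ± 0.21, adjusted p = 0.001). Sema4c, a ligand of plexin B2, gave 1966, 1397 and 1251 in NFFSE-cultured cells, against 1098, 607 and 663 in NFFS-cultured cells (0.99 ± 0.23, adjusted p = 0.01). In both genes replicate 1 was the highest of the NFFS arrays and still lay below the NFFSE arrays. Sema4f was higher in NFFSE with 116, 103 and 74.4 in NFFSE and 10.3, 20.9 and 21.1 in NFFS, where all 3 NFFS signals were at background. Taken against the background level, the estimated fold was 4.23 (adjusted p = 0.0022, log2 interval 1.53 to 3.54). The call was lost with the mean over both probe sets of the gene, since the second probe set, of low signal, had 29.0, 0.710 and 2.22 in NFFSE and 6.18, 19.5 and 28.3 in NFFS. Sema4a, which can engage plexins of the B and D types, went the other way, with 547, 569 and 672 in NFFSE-cultured cells, against 1206, 766 and 1237 in NFFS-cultured cells. The NFFS signals spread widely but stayed above those in NFFSE (-0.82 ± 0.19, adjusted p = 0.0089). Sema4g was lower by a log2 difference of -0.93 (adjusted p = 0.024).

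The other membrane semaphorins were mixed too. Sema5a, which carries thrombospondin repeats, had 184, 176 and 169.6 in NFFSE-cultured cells, against 728, 399 and 604 in NFFS-cultured cells. NFFSE arrays were nearly alike and lay below each NFFS array (-1.67 ± 0.22, adjusted p = 3.33e-04). For Sema5b the probe set with the highest mean log2 signal was not called (0.27, adjusted p = 0.69), but its other probe set had 72.5, 99.4 and 61.6 in NFFSE and 5.97, 23.5 and 2.58 in NFFS and was called higher (3.42, adjusted p = 0.01 over all probe sets). Of the class 6 genes, ligands of A-type plexins, Sema6d was higher in NFFSE (1.81, adjusted p = 2.34e-04) with 359, 294 and 286 in NFFSE and 107, 87.5 and 74.1 in NFFS. Sema6b was higher as well (1.27, adjusted p = 0.043) and lost its call in 7 of 16 alternatives. Sema6a was lower (-2.29, adjusted p = 4.43e-04), with 59.5, 65.3 and 49.5 in NFFSE and 423, 188 and 283 in NFFS, and Sema6c was not called (-0.08).

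**Figure D2:**
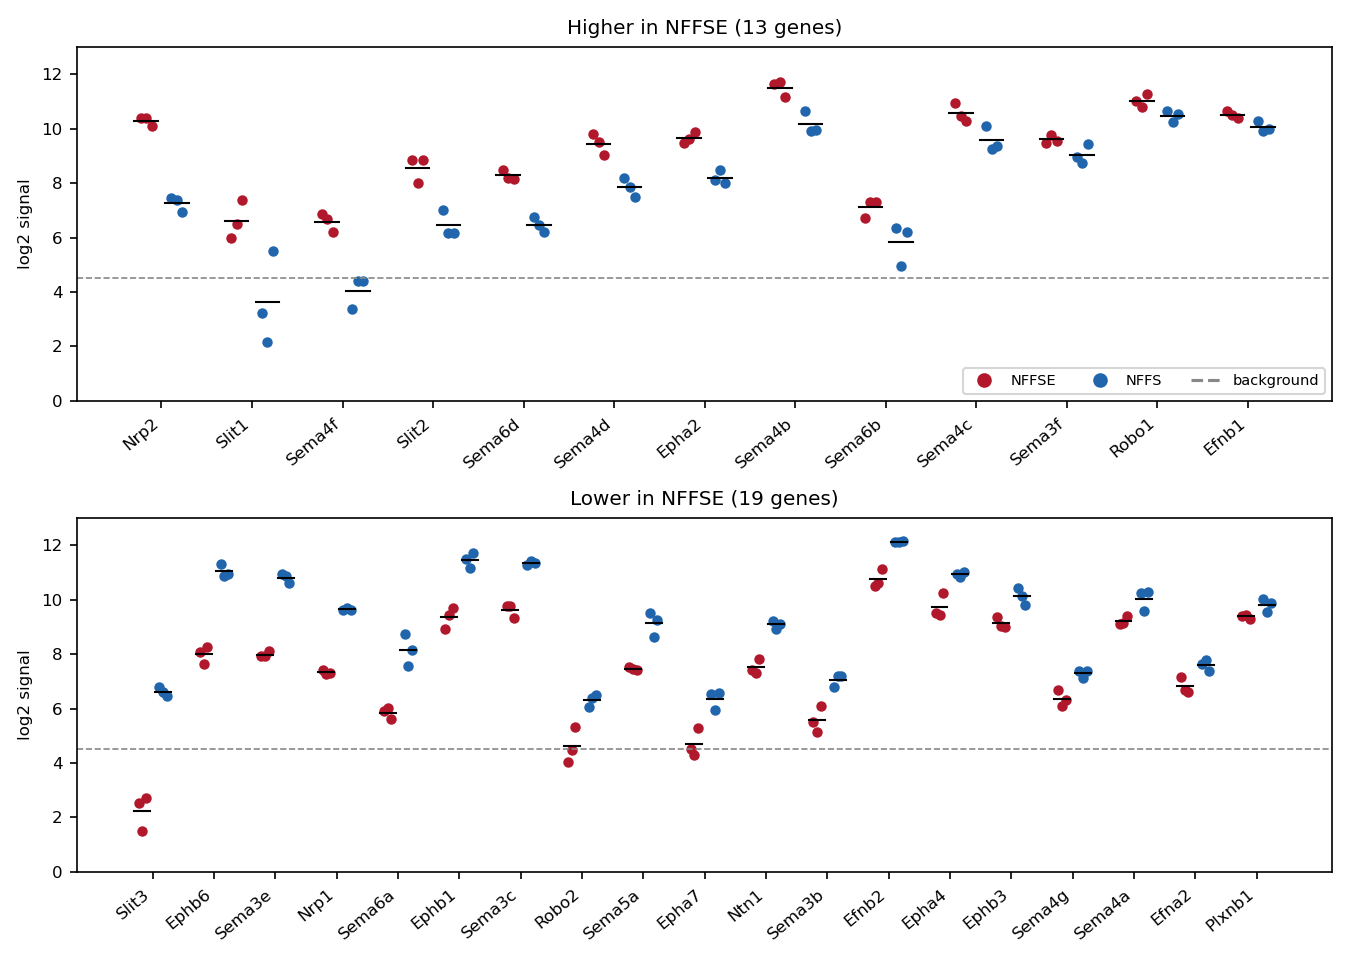
Log2 signal of the 32 called guidance genes on each of the 6 arrays, NFFSE (red) left of NFFS (blue), with group means as black lines and the background level of 22.7 (log2 scale) as a dashed line. In no gene do red and blue points overlap, and for Slit1, Sema4f, Slit3, Robo2 and Epha7 points of the lower medium lie at or under the dashed line.

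Of the 9 plexins, the receptors of the semaphorins, 1 was lower and 8 were not called, which makes 11.1% called, against 26.2% of all genes. Plexin B1 had 675, 702 and 633 in NFFSE-cultured cells, against 1035, 755 and 930.1 in NFFS-cultured cells. The difference was small (-0.43 ± 0.14, adjusted p = 0.048), and it was lost in 11 of 16 alternatives and in the fit over all probe sets (adjusted p = 0.055). For the brighter plexins the intervals of the log2 difference were narrow, at -0.35 to 0.30 for Plxna1, -0.39 to 0.46 for Plxna3 and -0.21 to 0.39 for Plxnb2. Plxna2 differed by -0.27. Plxnb3 had 235, 451 and 86.1 in NFFSE and 133, 74.8 and 18.7 in NFFS, and the wide spread within each medium left it uncalled (1.87 ± 0.73, adjusted p = 0.091), although pairing the arrays by repeat gave an adjusted p of 0.0035 in limma. Its second probe set differed by -0.11, so the direction rested on the probe set. Plxna4, Plxnc1 and Plxnd1 had log2 differences of 0.13, -0.72 and -0.46.

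Motifs of 7 kinds were searched in the promoter windows on both strands. TGANTCA, the AP-1 site (N is any base; it reads alike on both strands), was found in 3 of 17 windows of genes called higher, in 0 of 22 of genes called lower and in 0 of 35 of genes not called, and in 7.81% of all windows. The genes were Sema4c, Sema4d and Sema6b. Their sequences are RefSeq's (GRCm38.p6), 250 bases before the start on the gene's strand with the AP-1 match in capitals, and stand here because the 3 are semaphorins of the higher group.
Sema4c, chr1:36558382-36558631, minus strand: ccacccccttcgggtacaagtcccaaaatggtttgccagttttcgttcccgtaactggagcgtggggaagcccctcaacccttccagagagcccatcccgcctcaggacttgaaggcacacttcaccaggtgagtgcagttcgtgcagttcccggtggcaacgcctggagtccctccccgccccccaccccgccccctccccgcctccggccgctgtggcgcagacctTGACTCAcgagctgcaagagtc
Sema4d, chr13:51748811-51749060, minus strand: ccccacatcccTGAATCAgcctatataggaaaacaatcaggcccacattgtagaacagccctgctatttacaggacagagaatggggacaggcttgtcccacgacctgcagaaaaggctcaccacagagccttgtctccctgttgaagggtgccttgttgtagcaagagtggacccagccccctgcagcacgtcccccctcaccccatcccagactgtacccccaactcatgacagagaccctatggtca
Sema6b, chr17:56133853-56134102, minus strand: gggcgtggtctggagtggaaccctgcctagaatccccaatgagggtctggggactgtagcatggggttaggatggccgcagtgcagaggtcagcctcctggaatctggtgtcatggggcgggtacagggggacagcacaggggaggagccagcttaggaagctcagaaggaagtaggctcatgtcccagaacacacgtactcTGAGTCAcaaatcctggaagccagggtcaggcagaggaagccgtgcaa
The match began 22 bases before the start in Sema4c, 239 in Sema4d and 48 in Sema6b. All 3 starts lie inside the gene, 2318 bases from the gene table's start in Sema4c, 44868 in Sema4d and 6491 in Sema6b, and which transcript the arrays measured was not tested. The count is too small for a comparison and none was tested. The other motifs were searched in the same windows, with matches of different motifs allowed to overlap. CTTTGNN, the TCF/LEF core, stood in 9 of 17 windows of genes called higher, 7 of 22 of genes called lower and 13 of 35 of genes not called, and in 53.7% of all windows. The TEAD motif GGAATG stood in 1 window of the higher genes, 4 of the lower and 4 of those not called (14.7% of all windows). For the ETS motif CCGGAA these counts were 1, 3 and 2 (14.9%), and for the E-box CACGTG they were 2, 2 and 1 (7.15%). The TATA box, TATAAA, stood in 1 window of the higher genes, 1 of the lower and 0 of those not called (13.6%).

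Eph receptors are receptor tyrosine kinases, of which the A type mainly binds GPI-anchored ephrin-A ligands and the B type the transmembrane ephrin-B ligands. Of 13 receptors 1 was higher, 5 were lower and 7 were not called, which makes 46% called, against 26.2% of all genes. The receptor that was higher was Epha2, a kinase abundant in keratinocytes. It had 711, 781 and 945 in NFFSE-cultured cells, against 276, 358 and 259 in NFFS-cultured cells, which is 2.74-fold higher with no overlap (1.45 ± 0.17, adjusted p = 1.65e-04). Of the 4 B receptors read, 3 were lower and 1 was not called. Ephb2 was not among the 67 guidance genes.

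Ephb6, a receptor without kinase activity, had the largest decrease among the called guidance genes that were above background on all 6 arrays. Signals were 271, 199.9 and 310.1 in NFFSE-cultured cells, against 2519, 1892 and 1976 in NFFS-cultured cells. The NFFS arrays were 8.25-fold above the NFFSE arrays (-3.04 ± 0.18, adjusted p = 2.87e-06). Ephb1 had 481, 690.2 and 831 in NFFSE-cultured cells, against 2869, 2279.9 and 3337 in NFFS-cultured cells, a difference of -2.10 ± 0.20, adjusted p = 4.86e-05. Replicate 1 was the lowest of its NFFSE arrays and replicate 3 the highest of its NFFS arrays, without overlap. Ephb3 gave 659, 527 and 507 in NFFSE-cultured cells, against 1376, 1134 and 893 in NFFS-cultured cells (-0.996 ± 0.17, adjusted p = 0.0019), where replicate 3 of NFFS came nearest to the NFFSE arrays. Ephb4 was not called (-0.33, interval -0.84 to 0.18).

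Epha4, which binds ephrins of both types, was lower, with 731, 692 and 1215 in NFFSE-cultured cells, against 1959, 1835 and 2068 in NFFS-cultured cells. Replicate 3 stood above the other NFFSE arrays and still below NFFS (-1.20 ± 0.19, adjusted p = 0.0012). Epha7 was lower with 22.6, 19.5 and 39.0 in NFFSE and 92.5, 62.0 and 94.4 in NFFS. As 2 of its NFFSE signals were at background, the estimated fold was taken against the background level, at 3.0 (adjusted p = 0.015, log2 interval -2.60 to -0.72). The gene's other 3 probe sets were not called. Epha1 was bright and close to equal (-0.07, interval -0.39 to 0.24). Epha3, Epha5, Epha6, Epha8 and Epha10 were dim in both media and not called.

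The ephrins, ligands of these receptors, gave 1 higher, 2 lower and 5 not called of 8. This makes 37.5% called, against 26.2% of all genes and 40.2% of all genes that were not dim. Ephrin-B2, a ligand of B receptors and of Epha4, had 1456, 1579 and 2208 in NFFSE-cultured cells, against 4466, 4399.5 and 4588 in NFFS-cultured cells. The NFFS arrays agreed closely and all exceeded NFFSE, 2.61-fold on average (-1.38 ± 0.15, adjusted p = 8.75e-05), and 3 of the 4 probe sets were called lower. Ephrin-B1 was higher by a smaller margin, with 1611, 1451 and 1327 in NFFSE-cultured cells, against 1230.5, 973 and 1019 in NFFS-cultured cells (0.45 ± 0.13, adjusted p = 0.026). The groups did not overlap and all 3 probe sets were called, but the gene's own call was lost in 7 of 16 alternatives. Ephrin-B2 and ephrin-B1 thus moved in opposite directions, as the neuropilins did, and Efnb3 was dim and not called (-0.76).

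Ephrin-A1, the main partner of Epha2, stood at percentile 94.1 of all genes in NFFSE and 93.3 in NFFS and was not called. Its signals were 4898, 4018 and 4377 in NFFSE-cultured cells, against 4427, 4289 and 2835 in NFFS-cultured cells. Replicate 3 of NFFS was low and the other arrays overlapped (0.23 ± 0.17, adjusted p = 0.38, interval -0.15 to 0.60). Efna2 was lower (-0.77, adjusted p = 0.04) but lost its call in 11 of 16 alternatives. Efna3, Efna4 and Efna5 lay below zero at -0.31, -0.60 and -0.30 without passing the test (adjusted p = 0.072 for Efna4, which had an adjusted p of 0.0036 once arrays were paired by repeat). Efna4 gave 1082, 709 and 606 in NFFSE and 1497, 1027 and 1053 in NFFS, so that both media were highest in replicate 1.

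All 3 Slits were called, against 26.2% of all genes. Slit2, a secreted repellent for axons and for many migrating cells, was higher in NFFSE-cultured cells. It had 458, 256 and 463 in NFFSE-cultured cells, against 129.7, 72.6 and 72.5 in NFFS-cultured cells. The lowest NFFSE array, replicate 2, lay clearly above the highest NFFS array, replicate 1 (2.10 ± 0.31, adjusted p = 7.19e-04), and the gene's other probe sets, both of low signal, were not called. Slit1 had 63.8, 90.8 and 165 in NFFSE and 9.32, 4.47 and 45.0 in NFFS. Since 2 NFFS arrays were at background, the estimated fold was taken against the background level, at 3.46 (adjusted p = 0.017, log2 interval 1.25 to 4.74). The call was lost in 7 of 16 alternatives. Slit3 moved the opposite way, with 5.74, 2.86 and 6.49 in NFFSE and 110.2, 97.7 and 88.3 in NFFS. All NFFSE signals were at background, and the estimate taken against the background level was 4.33-fold lower (adjusted p = 2.07e-04).

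The Robo receptors were mixed as well. Robo1, a main receptor for Slits, was higher, with 2093, 1783 and 2465 in NFFSE-cultured cells, against 1622, 1228 and 1474 in NFFS-cultured cells. The margin between the media was small (0.55 ± 0.15, adjusted p = 0.019), and the call was lost in 7 of 16 alternatives. Robo2 was lower, with 16.4, 22.2 and 40.4 in NFFSE and 65.8, 82.9 and 90.5 in NFFS. As 2 NFFSE arrays were at background, the estimated fold was taken against the background level, at 2.87 (adjusted p = 0.018, log2 interval -2.68 to -0.70). Robo3 was dim (-0.75), and so was Robo4, which is known from endothelium and missed the threshold (0.90, adjusted p = 0.095).

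Netrin-1, the secreted ligand of Dcc, neogenin and Unc5 receptors, was the 1 netrin of 4 that was called (25%, against 26.2% of all genes). Its signals were 169.9, 159.6 and 226 in NFFSE-cultured cells, against 597, 489 and 557 in NFFS-cultured cells. NFFSE-cultured cells had 2.98-fold less, with all arrays of the media apart (-1.58 ± 0.18, adjusted p = 1.49e-04). The second probe set of the gene was low in signal and not called, and the mean over both lost the call. Netrin-4, a laminin-like basement membrane protein, was not called (-0.42, adjusted p = 0.081), although the arrays of both media did not overlap, at 476, 413 and 356 in NFFSE and 628, 496 and 540.4 in NFFS. With arrays paired by repeat its adjusted p was 0.047. Ntn3 and Ntn5 were dim. Of the Unc5 receptors limma called 0 of 4 (1 had an unadjusted p under 0.05, and the methods' t-test called 0). Unc5b, the one nearest the threshold, had 212, 246 and 215 in NFFSE and 186, 101 and 126 in NFFS (0.75 ± 0.25, adjusted p = 0.054). Unc5c had -0.47, and Unc5a and Unc5d were dim, with -0.45 and 0.88.

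**Figure D3:**
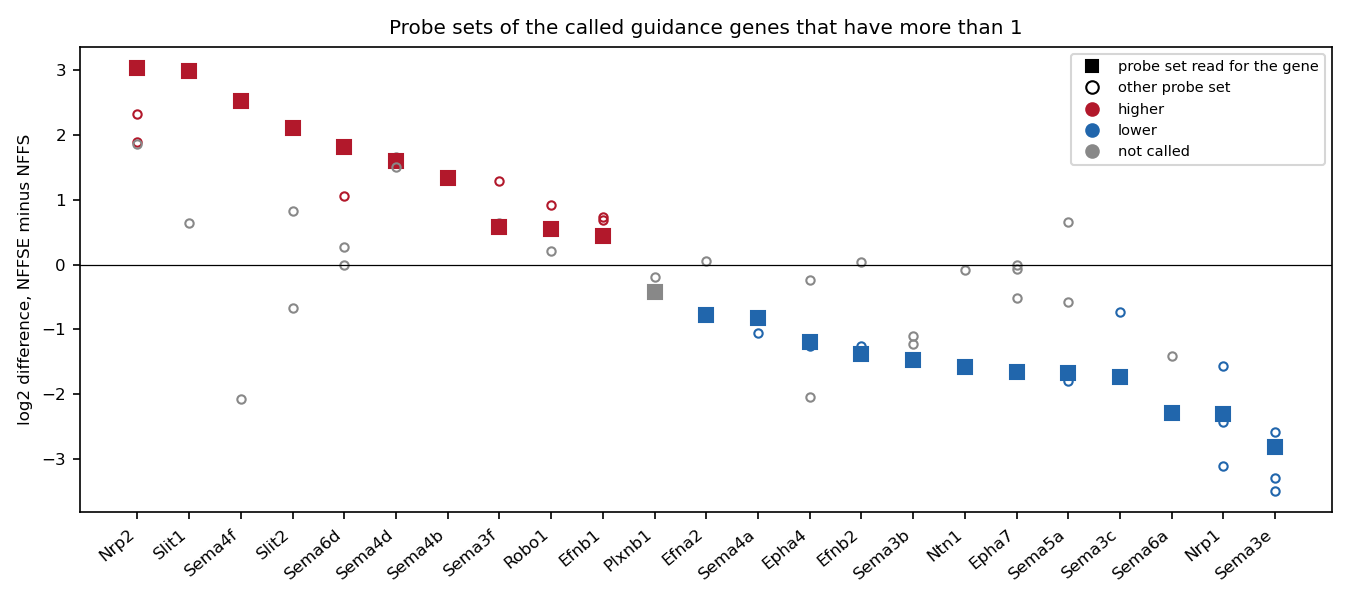
Log2 difference (NFFSE minus NFFS) of every probe set of the 23 called guidance genes that have more than 1, with the probe set read for the gene as a filled square and others as open circles, coloured by the call of the fit over all probe sets. In 14 genes another probe set was called the same way and in 0 genes the opposite way; for 9 genes, among them Slit1, Slit2, Ntn1 and Sema4d, no other probe set was called.

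Agreement among probe sets is one measure of how firmly a gene was read. Of the 32 called genes 9 have a single probe set, among them Epha2, Ephb1, Ephb3, Ephb6, Slit3 and Sema4c. Of 23 with more, 14 had another probe set called in the same direction, 9 had none and 0 had one called in the opposite direction. All probe sets were called in 6 of the 23, Sema3e, Nrp1, Efnb1, Sema3c, Sema4a and Sema4b.

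Across the 16 alternatives to the processing, 12 of the 32 calls held in every one and none changed sign. They were Nrp2, Epha2 and Sema4d (higher), and Sema3e, Sema3c, Sema5a, Sema6a, Nrp1, Ephb1, Ephb6, Efnb2 and Slit3 (lower). Plxnb1 and Efna2 lost theirs in 11 of 16 and Sema3f in 9.

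Leaving out 1 array ended the calls of 10 genes, all with differences that kept their direction, and the adjusted p from limma is given as a range over those arrays. Efnb1 was lost without NFFSE replicate 1 or 2 or NFFS replicate 2 or 3 (0.065 to 0.1). For Robo1 the arrays were NFFSE replicates 1 and 3 and NFFS replicate 2 (0.051 to 0.08), and for Sema3f they were all but NFFS replicate 3 (0.062 to 0.16). Sema6b depended on replicates 2 and 3 of both media (0.051 to 0.14) and Slit1 on NFFSE replicates 2 and 3 and NFFS replicate 1 (0.054 to 0.075). These 5 were genes called higher. Of the genes called lower, Epha7 was lost without NFFSE replicate 2 or NFFS replicate 1 or 3 (0.0503 to 0.064). Robo2 was lost without NFFSE replicate 1 or 2 or NFFS replicate 2 or 3 (0.0504 to 0.07). Sema4g depended on NFFSE replicates 2 and 3 and NFFS replicates 1 and 3 (0.059 to 0.084). Plxnb1 was lost without any array but NFFS replicate 2 (0.097 to 0.15) and Efna2 without any but NFFSE replicate 1 (0.052 to 0.12). In the opposite sense, leaving out 1 array brought 6 genes under the threshold: Efna4 (-0.84 without NFFSE replicate 1), Efna5 (-0.41) and Ntn3 (-2.61) without NFFS replicate 2, Ntn5 (-1.81 without NFFS replicate 3), Unc5b (0.99 without NFFS replicate 1), and Plxnb3 (2.48 without NFFS replicate 1 and 2.51 without NFFSE replicate 3).

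Genes that work with the guidance receptors were read from lists chosen by their known role, with earlier results of these data known. Over 93 measured partners 17 were higher, 24 lower and 52 not called, with a median log2 difference of -0.11. This makes 44.1% called, against 26.2% of all genes and 40.2% of all genes that were not dim. Of 31 partners of semaphorin and plexin signalling 8 were higher and 4 lower. L1cam, an adhesion molecule that forms a complex with Nrp1, was higher with 551, 551 and 434 in NFFSE and 169, 133 and 129.7 in NFFS (1.83 ± 0.19, adjusted p = 7.21e-05). Farp1, a FERM domain protein that acts with A-type plexins, was lower with 410.1, 317 and 499.6 in NFFSE and 1882, 1183 and 1727 in NFFS (-1.96 ± 0.21, adjusted p = 8.30e-05). Itgb1, the integrin β1 subunit through which Sema7a acts, was higher by 0.62, and Mical1, an enzyme that oxidizes actin after plexin activation, was lower by a difference of -1.45.

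Of 30 Eph and ephrin partners 5 were higher and 10 lower. Fyn, a Src family kinase that ephrin and Eph signalling recruit, was lower with 201, 195 and 142 in NFFSE and 643, 506 and 714 in NFFS (-1.79 ± 0.20, adjusted p = 1.11e-04). Tiam2, a Rac exchange factor, had -1.73 and Dvl2, a Wnt pathway protein, had -1.20. Ngef, the exchange factor ephexin that binds Epha4, was higher by 1.79 (adjusted p = 0.0036). Of 15 Slit and Robo partners 3 were higher and 5 lower. Evl, one of the Ena/VASP proteins that elongate actin filaments, was lower (-0.94), whereas its relative Vasp was higher (0.59) with 2861, 2923 and 2875 in NFFSE and 1927, 1906 and 1906 in NFFS. Cap1, a cyclase-associated actin regulator, was higher (0.87), and Arhgap39, whose fly relative Vilse binds Robo, was lower (-1.05).

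Of 18 measured netrin partners 1 was higher and 6 lower. Mcam, an adhesion molecule described as a netrin-1 receptor and also a marker of pericytes and endothelium, was lower with 74.1, 83.3 and 130.1 in NFFSE and 572, 499 and 732 in NFFS (-2.68 ± 0.25, adjusted p = 4.07e-05). Of the smooth muscle and pericyte markers given above, 3 were lower too and 5 were not called. The part of those cells in the Mcam difference was not tested. Neo1, the netrin receptor neogenin, was lower with 798, 751 and 732 in NFFSE and 1853, 1292 and 1788 in NFFS (-1.10 ± 0.15, adjusted p = 3.74e-04). Trio, an exchange factor acting with netrin receptors, was lower (-0.81), and Pitpna, a lipid transfer protein, was higher (0.51).

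**Figure D4:**
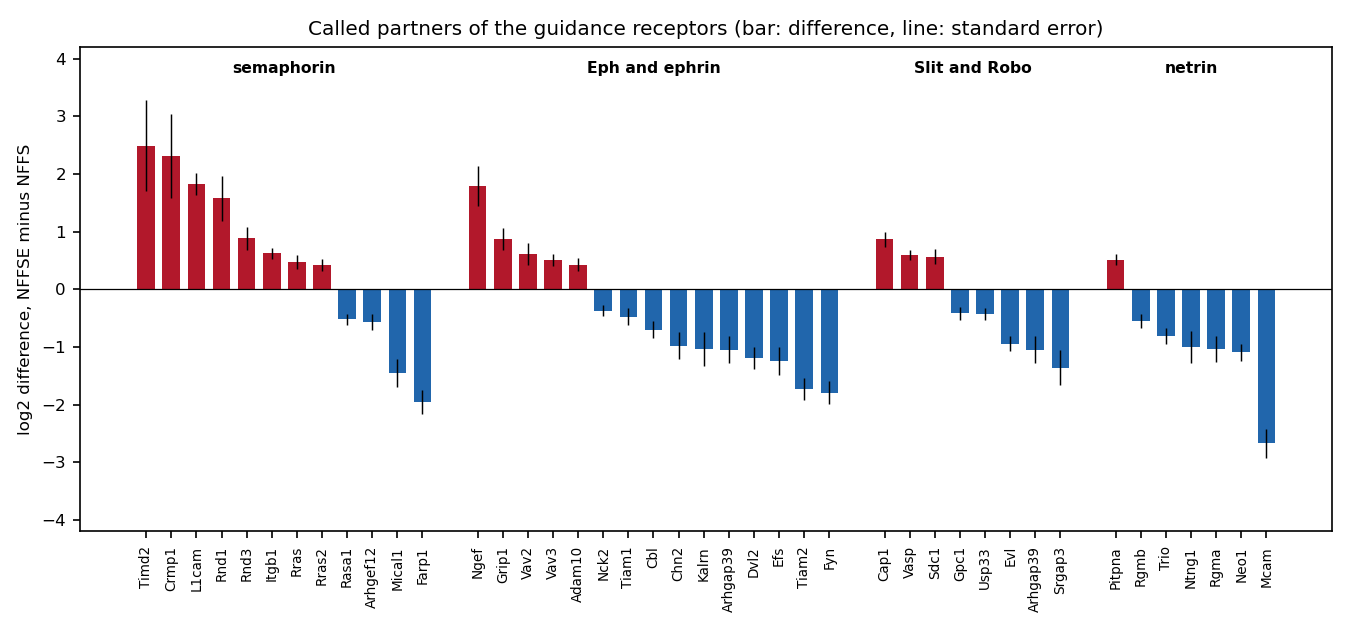
Log2 difference (NFFSE minus NFFS) with its standard error for the called partners, by list, where a red bar is higher and a blue bar lower in NFFSE; Arhgap39 stands in 2 lists. Bars run both ways in every list, from 8 up and 4 down among semaphorin partners to 1 up and 6 down among netrin partners.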

How the data were processed

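Total RNA of 6 cultures was hybridised to Affymetrix mouse genome arrays. The values deposited by the authors are MAS5 intensity signals per probe set, on a linear scale, of a MAS5 version not stated. The authors scaled each array to the same mean without the lowest and highest 2% of probe sets, which was checked on the values. Background correction and probe set summary are therefore theirs. Of 45101 probe sets, 64 controls were left out and 34945 were listed with 1 gene symbol in the platform annotation. For each of 18193 genes the brightest of its probe sets, by mean log2 signal over the 6 arrays, was taken. Gene numbers were found in the RefSeq table of GRCm38.p6 for 34741 probe sets.

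Differences (NFFSE minus NFFS) of log2 signals came from limma 3.58.1 under R 4.3.3 (lmFit, eBayes with an intensity trend). P-values were adjusted by Benjamini-Hochberg across all genes, and those under 0.05 were called. Folds are antilogs of the log2 differences. Where any array of the dimmer medium did not exceed the background level of 22.7, such signals were set to it for the fold. That fold is a bound on the point estimate and leaves out sampling error. Adjusted p and log2 intervals come from the signals as deposited. The script was tested on simulated data. The number of arrays limits the precision.

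Guidance genes and partner lists were chosen with earlier results of these data known. Signals on every array are given for called guidance genes whose brighter medium reached the 60th percentile of all genes, and for genes not called that reached the 90th in both media. Other called genes have their differences, and up to 4 called genes with the smallest p are named per partner list. A further list is not reported here. Further signals were added after their values were seen.

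The media share replicate numbers, and the series' design says that cells were divided between them. Deviations from the group means of arrays with the same number correlated at 0.264, 0.137 and 0.149 over 10916 genes, against -0.143 to -0.009 for other pairs of arrays. Centering each medium on its own mean ties these values together, so the other pairs are no separate evidence. The numbers were taken to pair the arrays as the design says, and the fit with the repeat as a block was an alternative. Others changed scaling, probe sets, floor, added constant, filter on dim genes, trend, test (the methods' t-test) and arrays.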

Additional observations from a re-analysis of the deposited data

How the results depend on the processing

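Of the 32 calls, 12 held under all 16 alternatives and none reversed. The balance of directions differed between scalings. With arrays centered on their medians the median log2 difference of all genes moved by over 0.1, to 0.18 from -0.01. All genes called higher then numbered 3013 and lower 1974 (60.4% of calls higher, against 41.9%). Guidance genes split 15 higher and 16 lower (48.4% against 40.6%), and their median was -0.11. Quantile normalization gave 14 guidance genes higher and 17 lower, and 2234 and 2511 of all genes (47.1% of calls higher). With signals under 32 set to 32, guidance genes called higher fell to 8 and the median was -0.081. Without the intensity trend 8 guidance genes and 1323 of all genes were higher. By the methods' t-test 7 guidance genes were higher and 11 lower, and of all genes 1262 and 1702. The replicate block kept every call and added 3, Efna4, Ntn4 and Plxnb3, giving 14 higher and 21 lower (2171 and 2967 of all genes), and changed no other call of a guidance gene. Leaving out 1 array gave 9 to 13 guidance genes higher, 14 to 19 lower, a median of -0.41 to -0.22, and 1403 to 2099 of all genes higher and 2132 to 2704 lower. The cause of these shifts was not tested.

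Signs changed for 13 genes, all not called. With median centering, Epha1 was at 0.12, Epha3 at 0.052, Plxna1 at 0.17 and Sema6c at 0.11. Under quantile normalization Epha1 was at 0.035, Plxna1 at 0.10 and Sema6c at 0.079, and with the mean of all probe sets Epha1 was at 0.14, Plxna1 at 0.071, Sema3d at 0.39 and Sema6c at 0.75. Plxnb3 was at -0.11 from a probe set without shared-sequence endings. The floor of 32 put Epha5 at -0.080 and Epha6 at 0.12, and adding 16 put Epha6 at 0.23. Leaving out 1 array gave -0.15 to 0.010 for Epha1, -0.48 to 0.48 for Epha3, -0.039 to 1.22 for Epha5, -1.62 to 1.33 for Epha6, -0.41 to 0.61 for Epha8, -0.094 to 0.095 for Plxna1, -0.051 to 0.15 for Plxna3, -0.60 to 1.04 for Plxna4, -0.010 to 0.21 for Plxnb2, -0.76 to 0.085 for Sema3d, -0.49 to 0.30 for Sema6c and -0.75 to 0.14 for Unc5a. No detection calls were used, so signals near background rest on the control level alone.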
